A study of Homo sapiens with 6 samples.

Results

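The 9 genes described here encode the enzymes that make and break down prostaglandin E2 and 3 of its receptors: PTGS1, PTGS2, PTGES, PTGES2, PTGES3, PTGER2, PTGER3, PTGER4 and HPGD. They were chosen by gene symbol, and all 16 probes with 1 of these symbols were taken from the 47218 probes of the array, on which 20041 genes are named. The genes were proposed with the difference between untreated and stimulated cells already known, so their differences are a description: no p-value is given for them, and how many lay past a threshold is only set beside the share of all probes. GEN2.2 is a human leukaemia line of the plasmacytoid dendritic cell type, which senses nucleic acids in endosomes and secretes interferon. The line was kept in RPMI medium with fetal bovine serum, and RNA of untreated log-phase cells was hybridised to 3 Illumina HumanHT-12 v4 arrays. RNA of GEN2.2 cells given 1 µM ODN2006 for 2 h was hybridised to another 3. The agent, a short DNA carrying unmethylated CpG, activates Toll-like receptor 9. No control oligonucleotide was part of the comparison, and only this leukaemic line was measured.

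Prostaglandin E2 is a lipid mediator made in steps from arachidonic acid, which phospholipases release from membranes. The cyclooxygenases encoded by PTGS1 and PTGS2 convert arachidonic acid to prostaglandin H2. The prostaglandin E synthases encoded by PTGES, PTGES2 and PTGES3 turn prostaglandin H2 into prostaglandin E2. PTGS1 is expressed steadily in many tissues, whereas PTGS2 is a short-lived transcript induced by inflammatory signals. The receptors encoded by PTGER2 and PTGER4 couple to the stimulatory G protein and raise cyclic AMP, and the receptor of PTGER3 couples mainly to inhibitory G proteins. HPGD encodes the dehydrogenase that inactivates prostaglandin E2. In dendritic cells prostaglandin E2 is known to modulate maturation, migration and cytokine output through its cyclic AMP-raising receptors.

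The DNA before the transcription starts of PTGS2, PTGER4 and PTGER2 is shown because probes of these 3 genes were higher after ODN2006. The windows are the 250 bases before the annotated start, 5′ to 3′ on the gene's strand, from RefSeq on GRCh38.p14, and lie upstream of the first exon. The window of PTGS2 is chr1:186680424-186680673 on the minus strand, that of PTGER4 is chr5:40679665-40679914 on the plus strand, and that of PTGER2 is chr14:52314062-52314311 on the plus strand. Capitals mark matches, on either strand, to any of 5 motifs: the TATA box (TATAAA), the cyclic AMP response half-site (CGTCA), a C/EBP motif (TTNNGNAA), an NF-kB motif (GGGA and CC, with any 4 bases between them) and an AP-1 motif (TGANTCA).
PTGS2: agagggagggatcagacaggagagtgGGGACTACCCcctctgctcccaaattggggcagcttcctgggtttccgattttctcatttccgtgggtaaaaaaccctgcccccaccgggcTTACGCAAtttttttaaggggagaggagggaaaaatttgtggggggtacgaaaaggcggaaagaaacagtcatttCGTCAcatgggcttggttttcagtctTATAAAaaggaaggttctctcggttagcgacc
PTGER4: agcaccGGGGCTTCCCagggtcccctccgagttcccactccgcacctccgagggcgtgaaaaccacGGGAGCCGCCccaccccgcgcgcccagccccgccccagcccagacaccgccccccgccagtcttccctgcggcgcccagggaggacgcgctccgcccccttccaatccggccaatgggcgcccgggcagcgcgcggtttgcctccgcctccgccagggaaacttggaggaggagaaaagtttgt
PTGER2: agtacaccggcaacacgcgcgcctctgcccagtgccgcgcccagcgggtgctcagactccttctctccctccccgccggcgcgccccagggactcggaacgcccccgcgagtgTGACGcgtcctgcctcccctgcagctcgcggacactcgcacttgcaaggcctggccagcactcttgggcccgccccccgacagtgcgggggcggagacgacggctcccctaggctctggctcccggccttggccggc

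The PTGS2 window held 4 matches that do not overlap, and the motifs had been picked from elements long described for this promoter. The NF-kB match began 224 bases before the start, the C/EBP match 133, the cyclic AMP half-site 58 and the TATA box 32 bases before it. Among the 34943 windows of this length in the RefSeq table, 10.8% held the TATA motif, 21.2% the half-site, 33.2% the C/EBP motif, 22.6% the NF-kB motif and 6.6% the AP-1 motif. All of the first 4 together were found in 28 windows (0.0801%). The PTGER4 window held 2 NF-kB matches, 244 and 184 bases before the start, and the PTGER2 window held 1 half-site, 137 bases before it. These 2 receptor windows were rich in G and C, with 72.8% for PTGER4 and 74.0% for PTGER2, against 50.4% for PTGS2 and a median of 58.0% over all windows. For 8 of the 9 genes the table holds 12 windows. An NF-kB match was present in 5 of these 12 windows, against 22.6% of all windows. The 5 windows belong to 5 genes, including PTGS1, PTGES3 and HPGD, which were not among those higher after ODN2006. The PTGES window held no match to any of the 5 motifs. A match is a string of letters and not a measured binding site, and short motifs occur often.

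**Figure D1:**
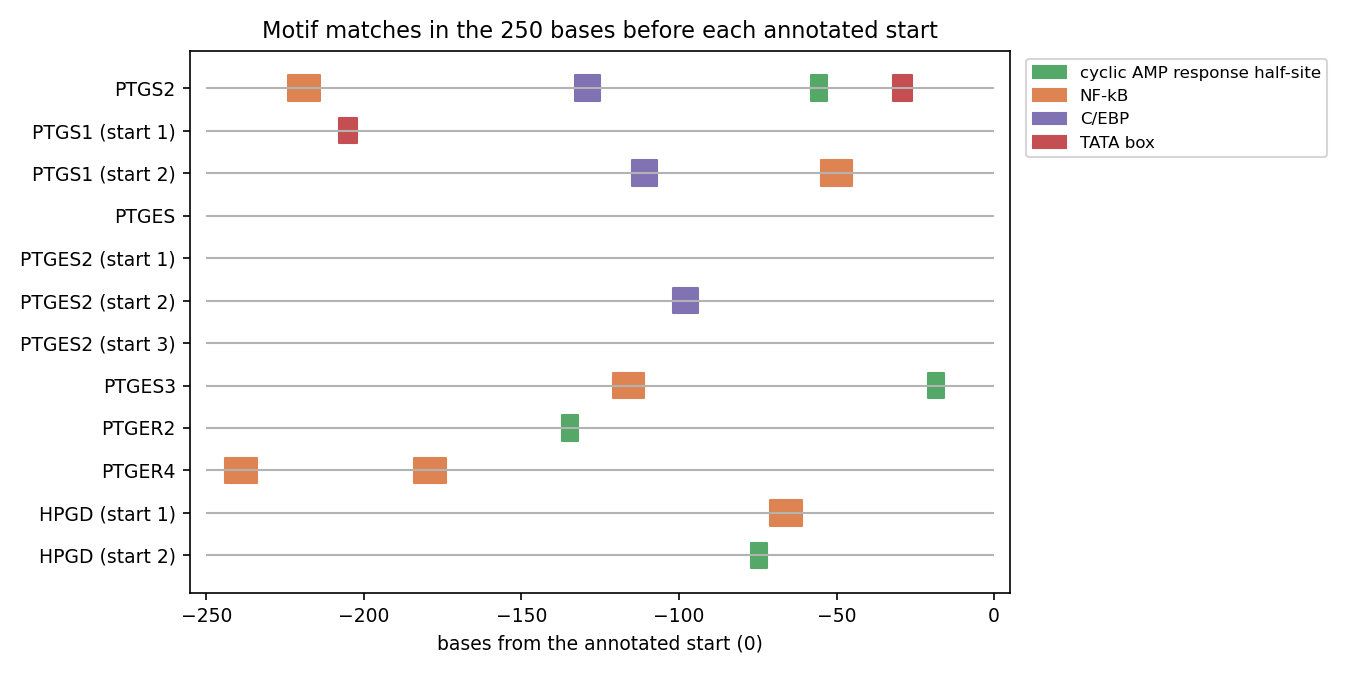
Positions of motif matches (coloured bars) in the 250 bases before each annotated start of 8 member genes; the x axis is the distance in bases from the start. PTGS2 carries 4 different motifs, the last of them a TATA box 32 bases before the start, and PTGES carries none.

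Of the 16 probes, 8 from 6 genes met the condition for testing, detection on all 3 arrays of at least 1 group. Detection means a detection p-value under 0.01 against the negative controls of the array. In the limma fit over all 13816 tested probes, 4 of these 8 probes, from PTGS2 (2 probes), PTGER2 and PTGER4, were higher after ODN2006 at an adjusted p under 0.05. Of all tested probes 3.25% were higher by that rule. None of the 8 was lower, against 1.75% of all tested probes. By gene, each stood for by its tested probe with the highest mean, 3 of 6 were higher, against 3.41% of 8706 genes. These shares are a description, since the same contrast was in view when the genes were proposed. No untreated array detected 3 of the 8 probes, both of PTGS2 and that of PTGER2, which entered the test through their detection on the ODN2006 arrays. Of the 97 probes of the array with that detection pattern 87.6% were higher by the same rule. The ODN2006 values all lay above the untreated values in 4 of the 8 probes, against 8.37% of all tested probes, and all below in 1, against 11.2%. Whether replicates came from separate cultures is not stated, and the p-values rest on their spread alone, part or all of which could be technical.

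**Figure D2:**
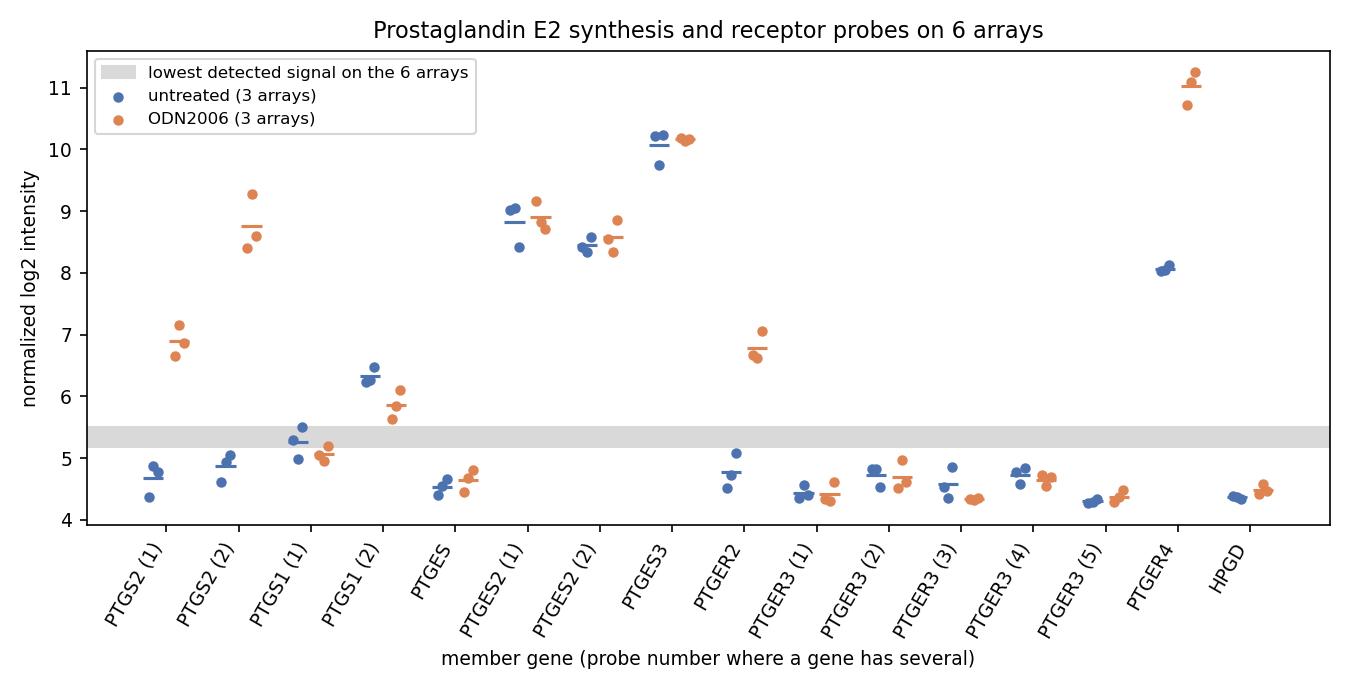
Normalized log2 intensity (y axis) of all 16 probes of the 9 genes on 3 untreated (blue) and 3 ODN2006 arrays (orange); short lines are group means and the grey band spans the lowest detected signal of the 6 arrays (5.18 to 5.50). The PTGS2 and PTGER2 probes cross the band after ODN2006, PTGER4 starts above it, and the PTGES, PTGER3 and HPGD probes stay below it.

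PTGS2, the inducible cyclooxygenase, was undetected on all untreated arrays and detected on all ODN2006 arrays, by both of its probes. Probe ILMN_2054297 read 4.62, 4.93 and 5.06 on untreated arrays 1 to 3 and 8.40, 9.28 and 8.60 on ODN2006 arrays 1 to 3 (normalized log2 intensity). Its lowest stimulated value was far above its highest untreated one, and the highest value came from ODN2006 replicate 2. In raw signal the same arrays gave 118, 118 and 116 without stimulation and 437, 702 and 499 with it. The difference was 3.89 ± 0.22 (log2, SE, n = 3 per group), and matched by replicate number it was 3.78, 4.35 and 3.55. Because the untreated values are background, the fold is a bound: the mean stimulated level was at least 11.5-fold higher. For such bounds the dim group is set, array by array, to the lowest signal of any detected probe, or to the probe's own value where that is larger. All such bounds compare group means and take no account of the spread between arrays, so a single pair of arrays can lie below them. In bulk RNA, more cells with a transcript and more transcript per cell cannot be told apart.

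The other PTGS2 probe, ILMN_1677511, also had every stimulated value above every untreated one. Its levels were 4.37, 4.87 and 4.77 on untreated and 6.65, 7.15 and 6.87 on ODN2006 arrays, again with replicate 2 highest among stimulated arrays. The difference was 2.22 ± 0.18 (log2, SE) and the bound at least 3.14-fold. Raw signals of this probe were 104, 116 and 109 untreated and 197, 234 and 209 stimulated, so its stimulated level lies close to background. Both probes are assigned to the same transcript. Both folds are lower bounds, so they do not show whether the probes differ in the true fold. The PTGS2 gene lies at chr1:186671791-186680423.

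PTGS1, the constitutive cyclooxygenase, had slightly lower values after ODN2006, and its tested probe did not pass the threshold in the reported fit. Probe ILMN_2339835 read 6.22, 6.27 and 6.47 on untreated arrays and 5.64, 5.85 and 6.09 on ODN2006 arrays. The stimulated values all lay below the untreated ones, as they did for 11.2% of all tested probes. Mean raw signals were 171 untreated and 153 stimulated, close to background. The log2 difference was -0.46 ± 0.16 (SE, 95% interval -0.81 to -0.11), and -0.46 ± 0.11 with the replicate number as a block. With the block this probe joined the 4 higher ones past the threshold, as a lower one, in a fit in which 4.03% of all tested probes were lower and 4.59% higher (4.11% and 4.65% of genes). That count too is a description. Matched by replicate number the differences were -0.59, -0.42 and -0.38, all of 1 sign. The other PTGS1 probe, ILMN_1665100, was near background: it was detected on untreated arrays 1 and 3 and on no ODN2006 array, and was not tested. Its values of 5.30, 4.98 and 5.51 untreated and 5.05, 4.96 and 5.20 stimulated overlapped.

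**Figure D3:**
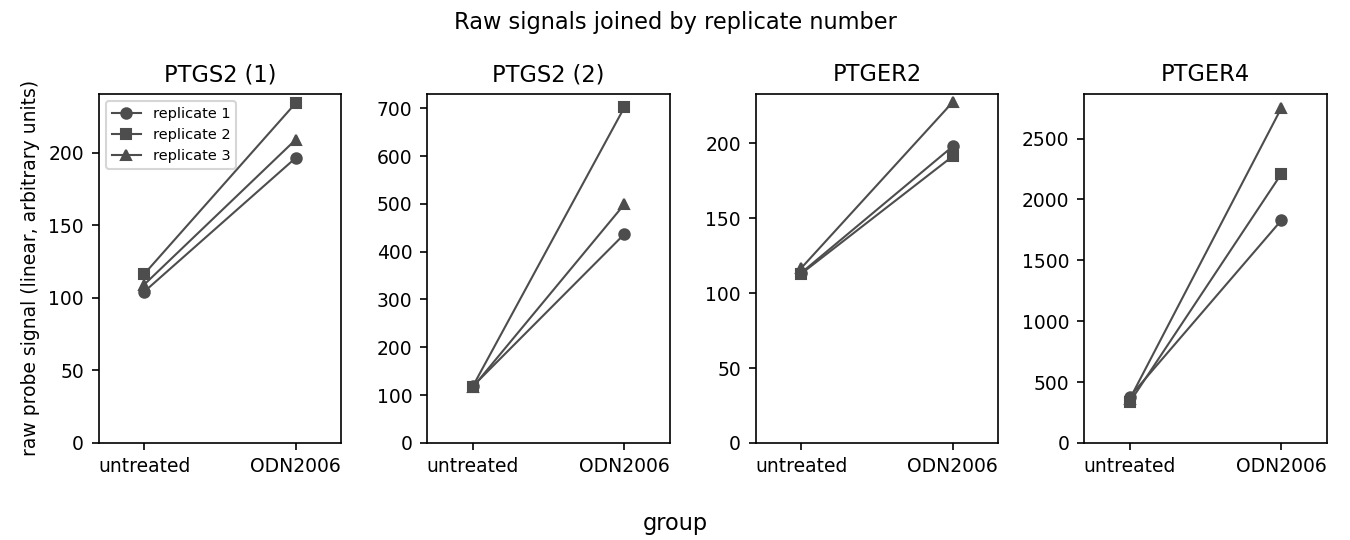
Raw probe signal (linear, arbitrary units, y axis from 0) of the 4 probes that were higher after ODN2006, with lines joining untreated and ODN2006 arrays of the same replicate number. PTGER4 runs from between 333 and 377 to between 1827 and 2749, and PTGS2 probe 2 (ILMN_2054297) from 116 to 118 up to between 437 and 702.

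Of the prostaglandin E synthases, PTGES2 and PTGES3 were detected on every array with overlapping groups, and the inducible microsomal form was not detected. PTGES3, which encodes the cytosolic synthase also known as the HSP90 co-chaperone p23, read 10.22, 9.74 and 10.24 untreated and 10.19, 10.13 and 10.17 stimulated. These values overlapped, and the log2 difference was 0.10 ± 0.16 (SE, 95% interval -0.26 to 0.45). PTGES2, the membrane-associated synthase, has 2 probes. Probe ILMN_2345015 read 9.02, 9.06 and 8.41 untreated and 9.16, 8.83 and 8.71 stimulated, a difference of 0.07 ± 0.20 (interval -0.36 to 0.50). For ILMN_2345016 the values were 8.41, 8.34 and 8.58 against 8.55, 8.33 and 8.86, a difference of 0.13 ± 0.16 (interval -0.22 to 0.49). Both PTGES2 probes overlapped between groups, and the intervals leave room for changes in either direction. PTGES, the microsomal synthase that is usually induced together with PTGS2 in inflammation, was detected on no array. Its values were 4.40, 4.54 and 4.66 untreated and 4.46, 4.67 and 4.81 stimulated, with raw signals between 106 and 117, so that a PTGES transcript was not detectable with this probe after 2 h.

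The receptor genes fell into detected and undetected members. PTGER4, the EP4 receptor gene at chr5:40679915-40746800, was detected on all 6 arrays. It read 8.03, 8.04 and 8.12 untreated and 10.72, 11.10 and 11.25 stimulated, with the untreated values close together and every stimulated value far above them. The log2 difference was 2.96 ± 0.16 (SE, 95% interval 2.60 to 3.31), a 7.77-fold difference, and matched by replicate number it was 2.69, 3.06 and 3.12. Raw signals were 377, 333 and 358 untreated and 1827, 2208 and 2749 stimulated. Of the 12326 probes detected on all arrays 2.52% were higher by the limma rule.

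PTGER2, the EP2 receptor gene at chr14:52314312-52328598, was undetected in untreated cells and detected on each stimulated array. The levels were 4.51, 4.73 and 5.08 untreated and 6.67, 6.62 and 7.07 stimulated, without overlap, and the highest value of each group came from replicate 3. The difference was 2.01 ± 0.18 (log2, SE) and the bound at least 2.91-fold. Its raw signals were 113, 113 and 117 untreated and 198, 191 and 227 stimulated, so the PTGER2 level after ODN2006 lies close to background. PTGER3 was detected by none of its 5 probes on any array. These 5 probes are assigned to 3 transcript variants, and their values ran from 4.27 to 4.97, with detection p-values of 0.0338 or more. The gene of the EP1 receptor, PTGER1, was not a member and was likewise detected on no array.

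HPGD, the inactivating enzyme, was also undetected. Its levels were 4.39, 4.36 and 4.33 untreated and 4.41, 4.59 and 4.47 stimulated, with raw signals from 94.6 to 114. The stimulated values lay above the untreated ones, but both groups were within background and no fold is given. In all, 7 of the 16 probes, from PTGES, PTGER3 and HPGD, were detected on no array.

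**Figure D4:**
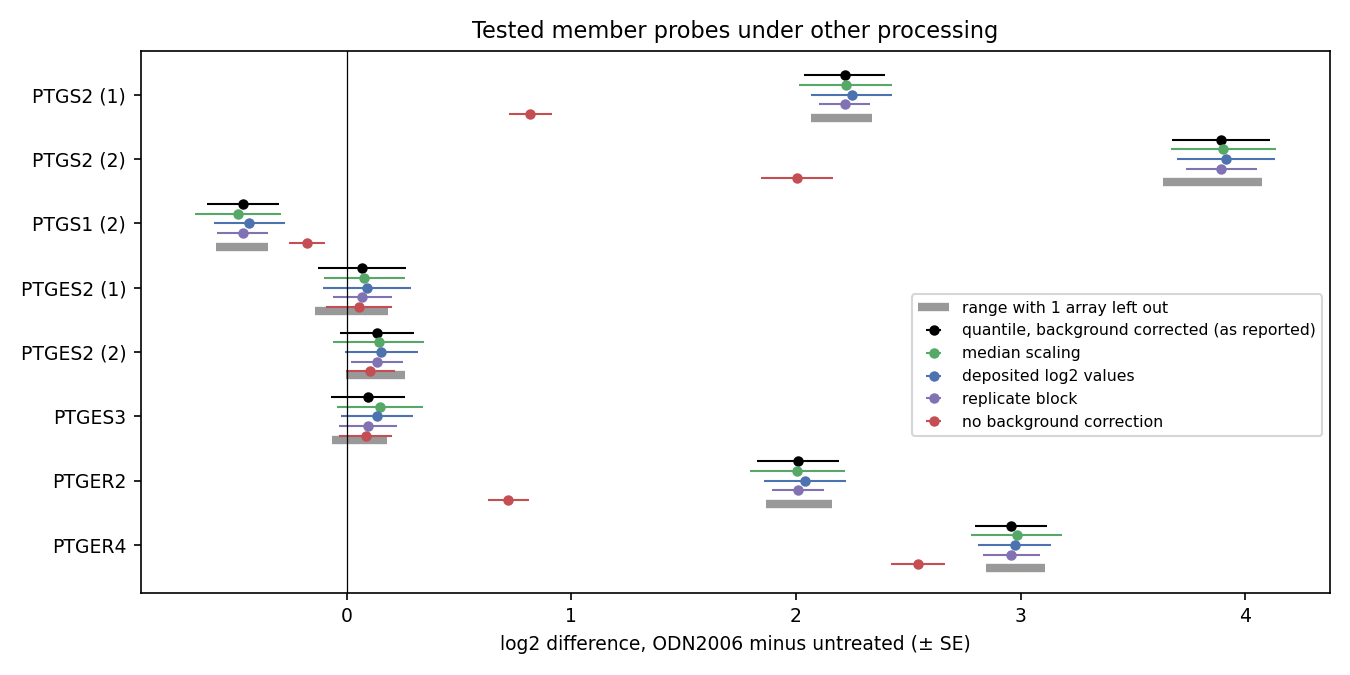
Log2 difference (ODN2006 minus untreated, x axis, ± SE) of the 8 tested member probes under the reported processing and 4 others, with the range over 6 fits that each leave out 1 array (grey). Without background correction PTGS2 probe 2 (ILMN_2054297) moves from 3.89 to 2.00 and PTGER2 from 2.01 to 0.72, and PTGER4 from 2.96 to 2.54.

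The genes whose values ran most like those of PTGS2 were regulators and cytokine genes. Likeness was the Euclidean distance between log2 values over the 6 arrays, each centred on its own mean, and with 2 groups of 3 it mostly reflects the size of the group difference. The untreated values of PTGS2 are background, so its distances, and the order of its neighbours, depend on where background lies. For PTGS2 (ILMN_2054297) the nearest were NFKBIZ, an atypical IkB protein (distance 0.75, log2 difference 4.22), TRIB1, a pseudokinase (0.77, 3.61), IL23A, a subunit of interleukin 23 (0.78, 4.13), and MIR155HG, the host transcript of a microRNA (0.80, 4.13). For PTGER4 they were PHLDA1 (0.33, 2.77), IL1RN, the interleukin 1 receptor antagonist (0.37, with untreated values at background), LTA, which encodes lymphotoxin alpha (0.39, 2.74), and IL18RAP, a chain of the interleukin 18 receptor (0.41, 2.84). NFKBIZ, TRIB1, IL23A, PHLDA1, LTA and IL18RAP were detected on all 6 arrays, MIR155HG on 1 untreated array and IL1RN on none of the untreated arrays.

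The rest of the pathway was followed through 8 lists with 161 genes, of which 149 are on the array and 92 were tested. In these lists 10 genes rose and none fell in the limma test (adjusted p under 0.05, Benjamini-Hochberg over all tested probes), against 3.41% of all tested genes higher and 1.81% lower. With the replicate block 12 genes rose and 2 fell, in a fit in which 4.65% of all tested genes were higher and 4.11% lower. The median log2 difference of the 92 tested genes was -0.04, close to the -0.05 of all tested genes. The lists were chosen with earlier results of these data known, so their counts and adjusted p-values are a description.

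Genes that release and recycle arachidonic acid did not pass, with 0 of 17 in either direction and a median log2 difference of -0.06. The genes with the highest means were MBOAT7, which returns arachidonic acid to phospholipids (-0.23 ± 0.19, SE), DAGLB, a diacylglycerol lipase (-0.15 ± 0.16), and ACSL5, an acyl-CoA synthetase (-0.23 ± 0.16). PLA2G4A, the cytosolic phospholipase that commonly supplies cyclooxygenases, was detected on 1 ODN2006 array only and not tested (named after its values were seen). With the replicate block PLA2G15, a lysosomal phospholipase, fell (-0.48, adjusted p = 0.0402).

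Among other prostanoid synthases and receptors 1 of 6 tested genes rose, against 3.41% of all tested genes: PTGIR, the prostacyclin receptor gene. It was detected on 1 untreated and 3 ODN2006 arrays, at 5.05 ± 0.46 and 6.04 ± 0.28 (mean log2 ± SD, n = 3), a difference of 0.99 ± 0.22 (SE, limma adjusted p = 0.0246). PTGIR no longer passed when untreated replicate 1, untreated replicate 2, ODN2006 replicate 2 or ODN2006 replicate 3 was left out (limma adjusted p from 0.0635 to 0.0939), with median scaling (0.0574), without background correction (0.134) and when all probes were tested (0.207). The reductase genes PTGR2 (-0.19) and PTGR3 (-0.43) and the synthase gene PRXL2B (0.20) did not pass. Another 11 genes of that list, among them the prostaglandin D synthase genes PTGDS and HPGDS, were not tested.

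Prostaglandin transporters and the lipoxygenase branch, which makes leukotrienes from the same precursor, showed no gene past the threshold. Of 3 tested transporter genes the efflux pump gene ABCC4 had -0.39 ± 0.19, SLCO3A1 -0.25 and SLCO4A1 0.05. Of 6 lipoxygenase pathway genes, ALOX5AP, which presents arachidonic acid to lipoxygenase, had -0.17, MGST2 -0.19 and LTA4H, the leukotriene A4 hydrolase gene, -0.10. ALOX5 itself was detected on no array.

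Of the G protein and cyclic AMP genes that carry the EP receptor signal, 1 of 20 tested rose, against 3.41% of all tested genes. The riser was PDE4B, a phosphodiesterase that degrades cyclic AMP. It was undetected in untreated cells (4.43 ± 0.04) and reached 5.89 ± 0.30 (limma adjusted p = 1.35e-04). By group means it was at least 1.57-fold higher. This probe was tested only through its detection on the ODN2006 arrays, like the 97 probes of which 87.6% were higher. Its other tested probe had 0.98 (adjusted p = 0.00167). GNAS, the stimulatory G protein gene, had -0.04 ± 0.15, CREB1 -0.05 ± 0.14 and PDE4C -0.04 ± 0.14. CREB1 and PDE4C, at 14.14 and 14.03 in untreated cells, had little room to rise below the highest value of any probe, 14.44. The 2 other tested CREB1 probes had -0.23 and 0.20 and did not pass. With the replicate block PDE4A rose as well (0.51, adjusted p = 0.0438).

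Most listed transcripts that cyclic AMP can induce also answer to other signals. Of 18 such genes on the array only 10 were tested, and CREM and PDE4D were among those detected on no array. The 10 tested had a median log2 difference of 1.56. Of these 10 genes 6 rose, against 3.41% of all tested genes. They were the nuclear receptor genes NR4A3 (3.59 ± 0.34, SE) and NR4A2 (1.70 ± 0.18), the AP-1 genes FOSB (2.45 ± 0.20) and JUNB (2.23 ± 0.18), the phosphatase gene DUSP1 (1.66 ± 0.14) and PDE4B, which stands in both lists and was not detected in untreated cells. NR4A3 was detected on 2 untreated arrays, and the other 4 on all 6 arrays. Their limma adjusted p lay between 5.76e-06 and 1.35e-04. RGS2, a regulator of G protein signalling, had -0.44 ± 0.17 and did not pass, and neither did SIK1 (-0.30) nor IRS2 (0.11). With the replicate block FOS rose as well (0.63, adjusted p = 0.0386).

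Among regulators of PTGS2 mRNA stability, 3 of 15 tested genes rose, against 3.41% of all tested genes. These 3 encode proteins that promote decay of inflammatory mRNAs. ZC3H12A, an endoribonuclease, went from 5.93 ± 0.30 to 8.95 ± 0.24 (mean log2 ± SD, n = 3), a difference of 3.02 ± 0.18 (SE, limma adjusted p = 4.36e-07). ZFP36, which encodes tristetraprolin, went from 11.01 ± 0.15 to 12.81 ± 0.13 (1.81 ± 0.15, adjusted p = 7.12e-06), and its relative ZFP36L1 from 9.17 ± 0.08 to 10.21 ± 0.26 (1.04 ± 0.16, adjusted p = 0.00166). ZFP36L2, of the same family (named after its values were seen), had -0.60 and did not pass (adjusted p = 0.0556), but fell with the replicate block (adjusted p = 0.0176). CNOT1 (0.05 ± 0.13) and HNRNPD (0.03 ± 0.14) did not pass. HSP90 and its co-chaperones, the partners of the PTGES3 protein, held no gene past the threshold among 16 tested, though another probe of UNC45A was lower (-0.76, limma adjusted p = 0.0170). HSP90AA1 was at 0.03 ± 0.14, HSP90B1 at -0.12 ± 0.16 and CDC37 at 0.11 ± 0.17.

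**Figure D5:**
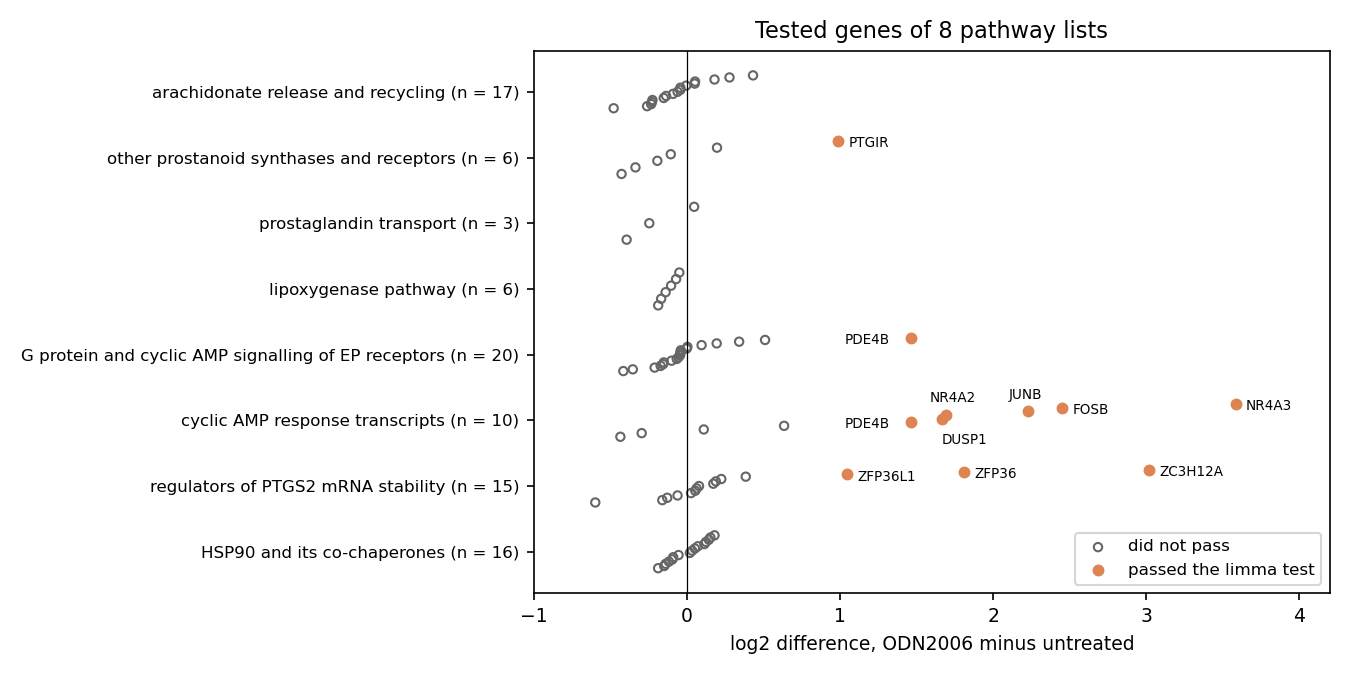
Log2 difference (ODN2006 minus untreated, x axis) of each tested gene in 8 pathway lists; filled points passed the limma test and open points did not. The 10 genes that rose lie in 4 lists, led by NR4A3 at 3.59 and ZC3H12A at 3.02.

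The label of the cells was checked against markers. Of 12 plasmacytoid dendritic cell markers 11 were detected on all 6 arrays, with LILRA4 the exception, and none of the 11 tested passed. Untreated means of the 11 ran from 6.87 for CLEC4C to 12.46 for IRF8, with TLR9 at 7.16 and IL3RA at 7.64. Of 11 monocyte and macrophage markers only 5 were detected on any array. CD14, CSF1R, LYZ and ITGAM were bright in untreated cells too (10.60, 11.13, 10.87 and 9.50). S100A9 was near background (5.50 untreated, detected on 1 ODN2006 array). FCGR1A, S100A8, VCAN, FCN1, CD163 and MARCO were detected on no array. The 5 tested genes of this list did not pass, with log2 differences from -0.38 to -0.22. Of the platelet, mast cell, T cell, B cell and stromal markers 6 genes were tested and none passed. That result concerns the difference after ODN2006 and not whether these markers were present. GP1BA, KIT, CD3G, CD79A and CD79B were detected on all 6 arrays, and COL1A2 on 3 untreated arrays and 1 ODN2006 array. In untreated cells the B cell marker CD79B was brighter than TLR9 and IL3RA. Some markers of other lineages were therefore detected in this line. Between 13454 and 15447 probes were detected per array, the median raw signal lay between 107 and 121. Precision is set by there being 3 arrays a group.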

How the data were processed

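Total RNA was amplified with a kit for Illumina bead arrays and hybridised to 6 arrays, per the labels. The authors deposited probe intensity on a linear scale, non-normalized per the file headers, with detection p-values beside it, also per the file headers. For the log2 values that the authors deposited, the submitters' processing notes name limma, and its settings are not given in the sources used here. Their quantiles were equal within each group and differed between groups, as separate normalization would give, so they served as an alternative.

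Intensities were corrected with normexp, with negative controls inferred from detection p-values, and all 6 arrays were then quantile-normalized jointly with offset 16 (neqc, limma 3.58.1, R 4.3.3). Differences were tested with lmFit and eBayes, two-sided, without covariates, with Benjamini-Hochberg adjustment over 13816 tested probes. The fit was tested on simulated data. The platform annotation gave 1 gene symbol for 30107 probes, several for 8 and none for 17103. Symbols were updated through gene IDs for 30068.

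Across tested probes, same-numbered arrays deviated together from their group means (Pearson r of 0.41, 0.35 and 0.46), so the numbers in the sample titles were taken to pair the samples, from the data and not from the labels. The reported fit did not use this pairing, so its standard errors and calls ignore it. Blocking on the replicate number was an alternative, in which 634 tested probes were higher and 557 lower, against 449 and 242. Members, lists and tests were chosen with earlier results of these data known. Named from a list are up to 6 genes that passed and up to 3 of highest mean. Likeness was taken for the 2 member probes of largest difference. Other list genes, among them RGS2, UNC45A, ALOX5, PTGDS, HPGDS, PTGER1 and those that passed only with the block, were named after their values were seen.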

Additional observations from a re-analysis of the deposited data

How the results depend on the processing

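Between 28.5% and 32.7% of an array's probes were above background, which limits what dim members can show. None of the 4 member probes higher after ODN2006 changed direction under any alternative run that tested it. With detection required on all 6 arrays PTGER4 was tested, and the PTGS2 and PTGER2 probes were not. Without background correction, which leaves a constant in every signal, the log2 differences were smaller: 0.82 and 2.00 for the PTGS2 probes ILMN_1677511 and ILMN_2054297, 0.72 for PTGER2, 2.54 for PTGER4 and -0.18 for PTGS1. With 1 array left out they ran from 2.07 to 2.34 and 3.63 to 4.07 for PTGS2, 1.87 to 2.16 for PTGER2, 2.84 to 3.11 for PTGER4, and -0.58 to -0.35 for PTGS1. For PTGES2 (-0.14 to 0.18 and -0.00 to 0.26) and PTGES3 (-0.07 to 0.18) the sign turned.

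Tested probes that were lower numbered 242. They numbered 159 without background correction, 157 with median scaling, 89 without the filter on dim probes, 557 with the replicate block, and 81 to 198 with 1 array left out. Of the other prostanoid genes 0 rose without background correction, with median scaling, without the filter and with detection required on all 6 arrays, and 0 to 1 with 1 array left out. Of the G protein and cyclic AMP genes 0 rose with detection required on all 6 arrays and 2 with the replicate block. Over all lists 1 gene fell with median scaling, 2 with the block, 1 with the mean of a gene's probes and 0 to 1 with 1 array left out. Of the mRNA stability regulators 1 fell in each of these 3 settings and 0 to 1 with 1 array left out, and of the arachidonic acid genes 1 with the block. Blocking on replicate number put PTGS1 (-0.46) among the probes past the threshold and changed that count for no other member. The slide could not be used as a block, since no slide is named.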
